A study of Mus musculus with 21 samples.

Results

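The very long H2Bub1 domains described here are the stretches of at least 100 kb in the list of H2Bub1 domains from mouse J1 embryonic stem (ES) cells that overexpress Fbxl19. They were chosen by the length that the authors' list gives for each line, and 417 of its 7216 domains, or 5.78%, reached 100 kb. Over all 5 H2Bub1 lists of the study there were 18181 domains. The 417 domains spanned 60.9 Mb, which is 24.8% of the bases in the overexpression list, and since length chose them it is given below only as a description. Coordinates are those of the mm9 build, counted from 1. Genes at these positions were not analysed here.

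H2Bub1 is histone H2B that carries a single ubiquitin on a lysine in its tail, and in mammalian cells it is a mark of the transcribed part of active genes. Rnf20 is an E3 ubiquitin ligase that, with its partner Rnf40, places this mark. Fbxl19 belongs to the F-box proteins and has a zinc finger of the CXXC type, which recognises DNA rich in unmethylated CpG, common at gene starts in mammals.

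Chromatin immunoprecipitation and sequencing covered 21 samples in 12 groups. H2Bub1 was precipitated with an antibody in 3 samples of OE-high cells, 2 samples of cells with Fbxl19 knockdown at day 4 of differentiation (day 4 knockdown), 2 of cells at day 4 without knockdown (day 4), 2 of knockdown cells kept as ES cells (knockdown ES) and 3 of plain ES cells (ES). OE-high is 1 clone with flag-biotin tagged Fbxl19 at more than 5-fold the endogenous level, and OE-low is a clone whose tagged Fbxl19 stays under the endogenous level. Fbxl19 was pulled down through its tag in 2 samples of each clone, and Rnf20 in 1 sample, with streptavidin beads. The OE-low and Rnf20 cells also contain BirA, a biotin ligase. The remaining 4 samples were inputs, for which no list was used. The method of differentiation is not stated in the labels, and how far Fbxl19 was reduced was not analysed here.

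Each H2Bub1 group has 1 combined list, and the track lines of the files carry 46M for OE-high, 41M for day 4 knockdown, 36M for day 4, 46M for knockdown ES and 60M for ES, a number whose meaning is not stated. With no list per sample there is no spread between replicates, so no difference between lists or classes below was tested and no p-value is given. Intervals are 95% intervals, exact binomial (Clopper-Pearson) for shares and exact Poisson for peak densities, and they cover counting error only. The lists differ in size, with 1090 domains over 15.6 Mb for day 4 knockdown, 5125 over 156 Mb for day 4, 1813 over 41.9 Mb for knockdown ES and 2937 over 57.4 Mb for ES. A share covered in a list moves with how much that list called.

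The 417 domains had a median length of 131 kb, with quartiles of 114 and 162 kb and a longest domain of 428.4 kb. Their score, the authors' own value for each domain, had a median of 11.9 and ran between 7.02 and 36.2. The medians of the shorter classes lay on both sides of this, at 12.3 in domains of 50 to 100 kb, 12.4 in domains of 20 to 50 kb and 10.9 in domains under 20 kb. These classes held 1158, 2253 and 3388 domains. Just inside it, at exactly 100 kb, stood 12682600 to 12782599 on chromosome 1, wholly covered at day 4, and 123013000 to 123112999 on chromosome 8, covered to 83.6% at day 4. Just outside it, at 99.8 kb, stood 108775200 to 108874999 on chromosome 4, with no base in any other H2Bub1 list, and 141695600 to 141795399 on chromosome 4, covered to 90.6% at day 4.

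The 10 longest domains show the range of what was found. The longest, 12386000 to 12814399 on chromosome 14, was matched at day 4 by 1 domain of 410.6 kb, which covered 95.8% of it. Its left end also held 5 kb of a knockdown ES domain and 5.2 kb of an ES domain, and the day 4 knockdown list had no domain on it. Both pieces began at the end itself, where they were cut, so those domains may reach beyond it. The only OE-high Fbxl19 summit in it lay 3.08 kb from the same left end, leaving 425 kb without another, and its 1 Rnf20 peak lay 359 kb from that end. Within this domain, the stretch called in ES and knockdown ES cells was thus a short piece at 1 end of the stretch called in OE-high and day 4 cells.

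The next 3 by length had no domain in the day 4 knockdown, knockdown ES or ES lists and were partly covered at day 4. The 373.6 kb domain from 100428400 to 100801999 on chromosome 12 was covered to 53.9% by 1 day 4 domain of 201.2 kb. That day 4 domain ended 202.8 kb from the left end, and an OE-high Fbxl19 summit lay at 202.9 kb. The 353.2 kb domain from 88552600 to 88905799 on chromosome 3 was covered to 28.5% by 2 day 4 domains and held 6 OE-high Fbxl19 and 4 Rnf20 peaks. The 330.2 kb domain from 149655800 to 149985999 on chromosome 4 was covered to 67.8% and held 2 OE-high Fbxl19 peaks and no Rnf20 peak.

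The fifth and the tenth carried H2Bub1 domains in ES cells over much of their length. The 325 kb domain from 103791600 to 104116599 on chromosome 12 was covered to 67.0% at day 4, 61.4% in knockdown ES cells and 49.1% in ES cells, and not at all in day 4 knockdown cells. It held 10 OE-high Fbxl19 peaks, 4 OE-low Fbxl19 peaks and 1 Rnf20 peak. The 275.4 kb domain from 44822000 to 45097399 on chromosome 13 was covered to 63.3% in day 4 knockdown cells, 99.1% at day 4, 99.3% in knockdown ES cells and 99.2% in ES cells. It was thus a long domain in all 5 lists, and it held 20 Rnf20 peaks beside 5 OE-high Fbxl19 peaks.

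The other 4 of the 10 had little or no ES cover. The 305.2 kb domain from 37253800 to 37558999 on chromosome 2 was covered to 64.5% at day 4, 3.80% in knockdown ES cells and 4.59% in ES cells. The 297.2 kb domain from 5300000 to 5597199 on chromosome 2 held 0.4 kb of a day 4 knockdown domain and 0.6 kb of an ES domain at its left end, beside an Rnf20 peak 0.265 kb from that end, and 99.8% of it was in no other list. It had no OE-high Fbxl19 peak. The domains from 69502800 to 69792399 on chromosome 18 and from 84033800 to 84321199 on chromosome 4 met no domain of any other list, and held 3 and 2 OE-high Fbxl19 peaks. Their scores of 7.04 and 7.20 were near the lowest in the list.

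**Figure D1:**
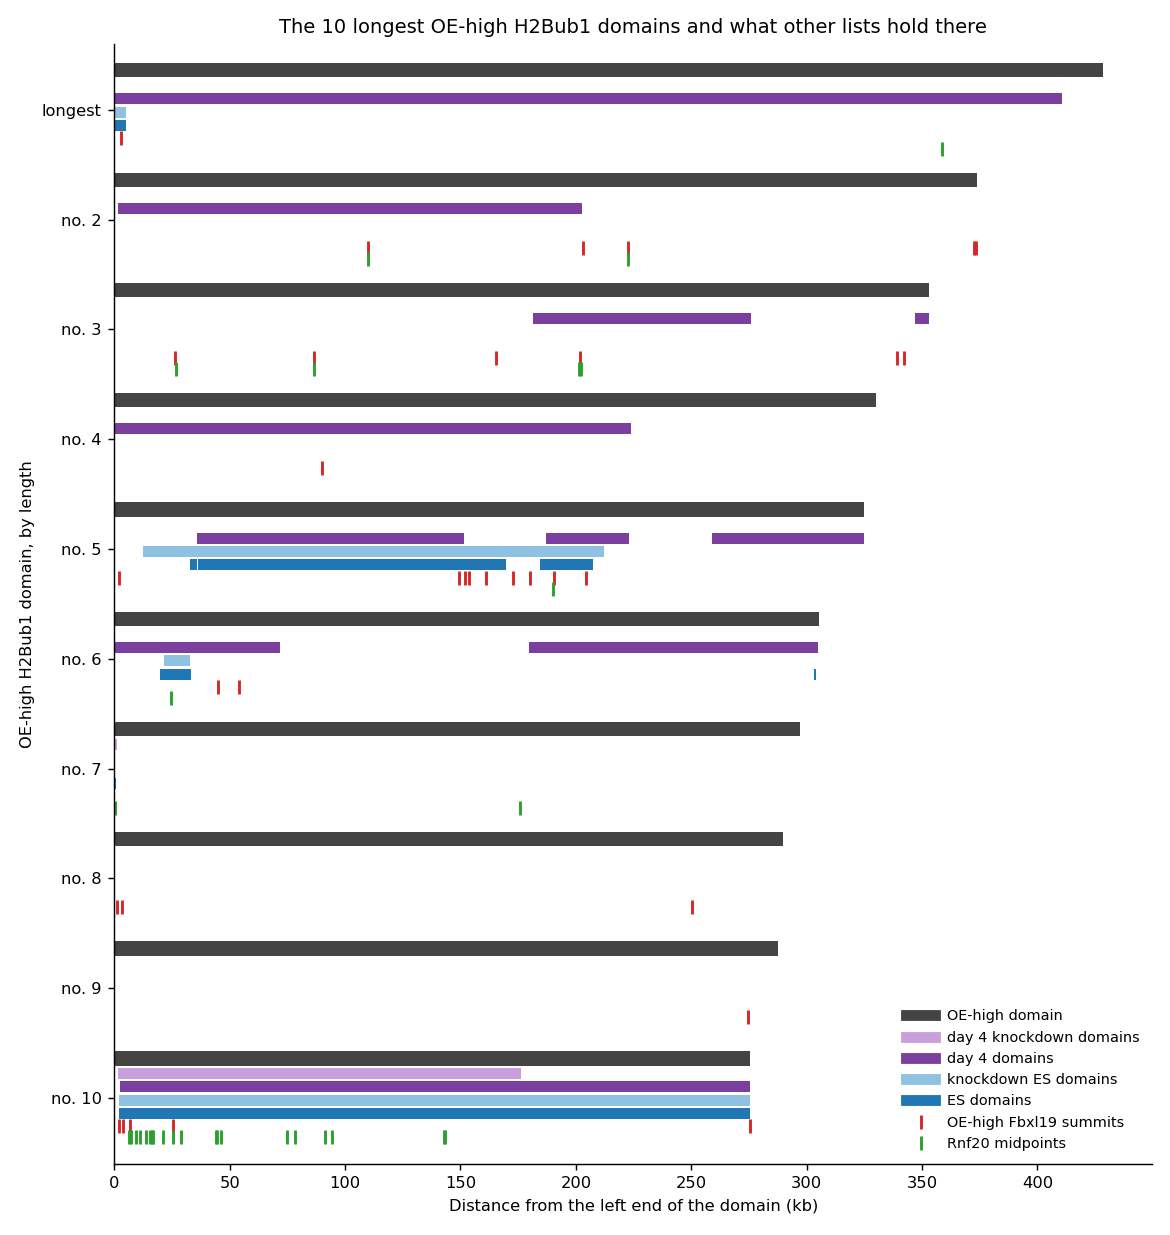
Map of the 10 longest OE-high H2Bub1 domains, drawn from the left end in kb, with the domains of the day 4 knockdown, day 4, knockdown ES and ES lists that fall on each and marks for Fbxl19 and Rnf20 peaks. Pieces under 0.8 kb are drawn 0.8 kb wide. The day 4 list fills 410.6 of 428.4 kb of the longest domain, while the ES list holds 5.2 kb at its left end.

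Over all 417 domains, the bases covered were 4.35% in the day 4 knockdown list, 51.9% in the day 4 list, 12.9% in the knockdown ES list and 17.0% in the ES list. In domains of 50 to 100 kb the shares were 5.92%, 59.6%, 14.4% and 18.5% in the same order of lists, and in domains of 20 to 50 kb they were 7.31%, 61.9%, 16.2% and 21.1%. In domains under 20 kb they were 5.58%, 52.3%, 15.5% and 20.9%. With the full lists, the long domains thus had lower cover than each of the 3 shorter classes in each of the 4 lists. The order of the lists changed with the lines used. With each list limited to its 1090 highest scores, the cover of the long domains was 4.35% for day 4 knockdown, 7.78% for day 4, 6.95% for knockdown ES and 3.61% for ES, so that ES came last. This choice alters list size and score cut together, and their parts were not told apart. Read from the side of the other lists, the long domains took up 17.0% of the day 4 knockdown bases, 20.3% of the day 4 bases, 18.7% of the knockdown ES bases and 18.1% of the ES bases.

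**Figure D2:**
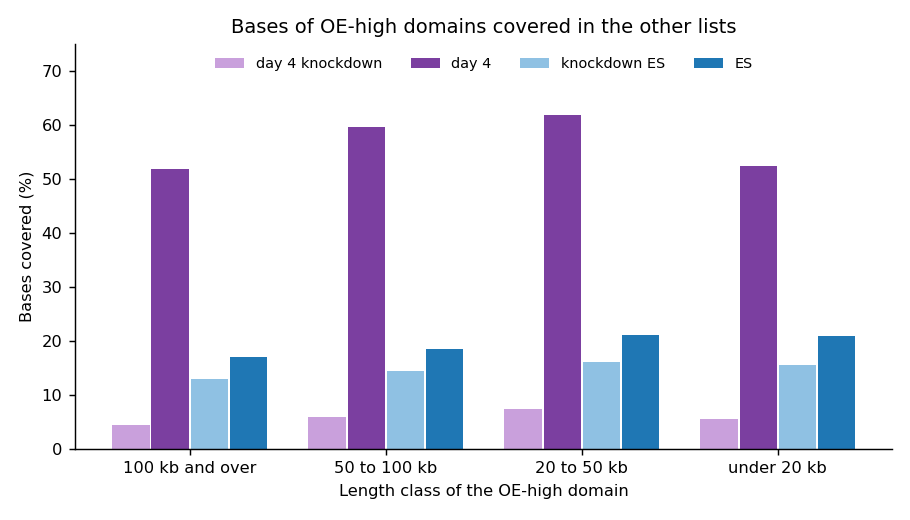
Bars give the share of bases in OE-high domains covered in each of the 4 other H2Bub1 lists, by length class of the OE-high domain, from at least 100 kb on the left. Cover at day 4 is 51.9% in the longest class and 61.9% in domains of 20 to 50 kb, and the ES share is 17.0% and 21.1% in these classes. There is 1 combined list per group, so no error bars are drawn.

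Counted by domain, 67 of the 417 held at least 1 day 4 knockdown domain (16.1%, interval 12.7 to 19.95%), where 13.9% of all OE-high domains did. At day 4 the count was 292 (70.0%, 65.4 to 74.4%), against 66.0% of all OE-high domains. In knockdown ES cells it was 93 (22.3%, 18.4 to 26.6%), against 23.2%, and in ES cells 174 (41.7%, 36.9 to 46.6%), against 34.8%. The knockdown ES share without chromosome 1 was 16.4%. These shares are counted per domain, and a longer domain has more room to meet another. The classes of 50 to 100 kb, 20 to 50 kb and under 20 kb had 18.5%, 17.7% and 9.56% for day 4 knockdown. They had 76.3%, 74.97% and 55.96% for day 4, 27.6%, 26.9% and 19.3% for knockdown ES, and 42.8%, 39.6% and 27.98% for ES. For day 4 and knockdown ES the classes of 50 to 100 kb and 20 to 50 kb thus lay above the intervals of the long domains. For day 4 knockdown and ES they lay within them.

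The number of domains held was small. Day 4 knockdown domains numbered 1 in 60 of the long domains and 2 in 7. Day 4 domains numbered 1 in 244, 2 in 39 and 3 in 9. Knockdown ES domains numbered 1 in 80 and 2 in 10, with at most 4 in any. ES domains numbered 1 in 133, 2 in 30 and 3 in 6, with at most 6. The means per long domain were 0.177 for day 4 knockdown, 0.837 for day 4, 0.266 for knockdown ES and 0.561 for ES.

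What was held differed in length more than in number. The 348 day 4 domains on the long domains had a median length of 98.4 kb, and the 111 knockdown ES domains 54.2 kb. The 233 ES domains had a median of 14.0 kb and the 74 day 4 knockdown domains 19 kb. Of the ES domains, 144 lay wholly inside a long domain, as did 62 of the day 4 knockdown, 229 of the day 4 and 53 of the knockdown ES domains. Among the long domains that held any, the median cover was 18.7% for day 4 knockdown, 89.5% for day 4, 73.2% for knockdown ES and 23.0% for ES. At the median, day 4 or knockdown ES cover, where present, thus filled most of the long domain, and ES or day 4 knockdown cover a small part of it. The median over each whole list was 19800 bp for day 4, 9600 bp for knockdown ES, 7600 bp for ES and 8000 bp for day 4 knockdown. Longer domains of any list are more readily met. The lengths met by shorter OE-high domains were not examined.

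Cover of at least 50% was reached by 17 long domains in day 4 knockdown cells (4.08%), 234 at day 4 (56.1%), 53 in knockdown ES cells (12.7%) and 68 in ES cells (16.3%). The shares of all OE-high domains were 5.64%, 57.7%, 14.9% and 19.6% in the same order. Cover of at least 90% was found for 145 at day 4 (34.8%; 38.8% of all OE-high domains), 36 in knockdown ES cells (8.63%; 8.19%) and 40 in ES cells (9.59%; 10.8%), near the shares of the whole list. In 56 long domains (13.4%, 10.3 to 17.1%) the ES list covered some bases but under 10%, as in the longest domain, against 3.78% of all OE-high domains and 10.2% of those of 50 to 100 kb. At 20 to 50 kb it was 4.08% and under 20 kb 0.207%. Day 4 cover was above 0 and under 10% in 6 (1.44%; 0.319% of all OE-high domains). A bin of under 10% takes in longer pieces on a longer domain, and length chose these domains. Both shares are thus raised in part by the choice itself. In 29 (6.95%, 4.71 to 9.84%) the ES and knockdown ES lists each covered at least 90%, against 5.58% of all OE-high domains. Of these 29, 6 had no day 4 domain (1.44% of the 417, 0.530 to 3.11%), against 0.845% of all OE-high domains, which lies within that interval.

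**Figure D3:**
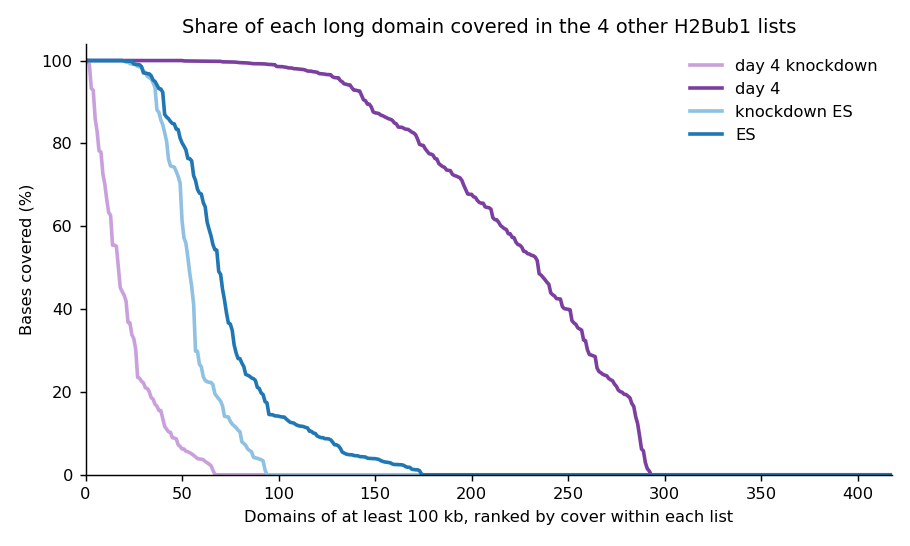
Each line ranks the 417 long domains by the share of bases covered in 1 of the 4 other H2Bub1 lists. The day 4 line is above 0 for 292 domains and at or above 90% for 145, while the ES line is above 0 for 174 and at or above 90% for 40.

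Domains of at least 100 kb were also found in the other lists. The day 4 knockdown list had 9 of 1090, the longest 185.8 kb, the day 4 list 216 of 5125, the longest 410.6 kb, the knockdown ES list 82 of 1813, the longest 452.4 kb, and the ES list 100 of 2937, the longest 455 kb. Of the 9 in day 4 knockdown cells, 7 lay on an OE-high long domain (77.8%), and 7 of the 417 (1.68%) met one. Of the 216 at day 4, 169 lay on an OE-high long domain (78.2%), and 169 of the 417 (40.5%) met one. Of the 82 in knockdown ES cells 46 did (56.1%), and 46 of the 417 (11.03%) met one. Of the 100 in ES cells 52 did, and 53 of the 417 (12.7%) met one. The shares of long day 4 knockdown and day 4 domains on an OE-high long domain were thus close, the first from 9 domains only, and those of the ES and knockdown ES lists were lower. Counting OE-high domains of any length, 8 of the 9 day 4 knockdown and 205 of the 216 day 4 domains lay on one. So did all 82 of the knockdown ES list and 99 of the 100 of the ES list. The lower shares thus reflect OE-high domains under 100 kb at those places.

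In 91 of the 417 (21.8%, 18.0 to 26.1%) no domain of the 4 other lists was met, against 26.8% of all OE-high domains. By class the share was 16.3% at 50 to 100 kb, 19.2% at 20 to 50 kb and 35.98% under 20 kb. The long domains thus met no other list more often than those of 50 to 100 kb and less often than those under 20 kb. The share at 20 to 50 kb lay within their interval. Together 26.6 Mb of the long domains, or 43.6% of their bases, lay in no other list, against 35.9%, 33.8% and 41.5% in the classes of 50 to 100 kb, 20 to 50 kb and under 20 kb. A further 22.2 Mb (36.4%) lay in the day 4 list alone among the other 4. All 4 lists shared 1.26 Mb (2.07%). In 66 of the long domains (15.8%, 12.5 to 19.7%) the day 4 list covered at least 90% while neither the ES list nor the knockdown ES list held any domain, against 20.4% of all OE-high domains. A pair without OE-high Fbxl19 peaks, 65047000 to 65315199 on chromosome 18 (268.2 kb, 1 Rnf20 peak) and 36101600 to 36338399 on chromosome 13 (236.8 kb, no peak of either protein), met no other list at all.

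The knockdown lists were compared with their counterparts within the long domains. Of the bases in ES domains, 64.7% were also in knockdown ES domains, against 60.3%, 61.2% and 57.6% in the classes of 50 to 100 kb, 20 to 50 kb and under 20 kb. Counted by ES domain, the share meeting a knockdown ES domain was 103 of 233 (44.2%, 37.7 to 50.8%) on the long domains. It was 52.9% (48.8 to 56.9%), 58.4% (55.2 to 61.5%) and 59.4% (56.2 to 62.6%) on the shorter classes. Counted in domains the share kept was thus lower on long domains than on shorter ones. Counted in bases its rank rested on chromosome 1, without which the share was 54.2% on the long domains, against 56.4%, 58.7% and 55.7% in the shorter classes. Without chromosome 1 the share of ES domains was 33.7% (27.0 to 40.9%) on the long domains, against 49.2%, 56.2% and 57.5%. Of the day 4 bases, 7.87% were also in day 4 knockdown domains, against 9.75%, 11.6% and 10.4%, and 70 of 348 day 4 domains met one (20.1%, 16.03 to 24.7%), between the shares of the shorter classes (21.1%, 22.4% and 17.2%). In 181 long domains (43.4%) the day 4 list covered at least 50% and the day 4 knockdown list nothing, near the 45.7% of all OE-high domains with that pattern. The shortness of the day 4 knockdown list bears on each of these shares, and its part in them was not tested.

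OE-high Fbxl19 peaks numbered 923 on the long domains. At least 1 was present on 343 of 417 (82.3%, 78.2 to 85.8%), against 67.5% of all OE-high domains, and the median was 2. The share was 81.5% at 50 to 100 kb, 74.2% at 20 to 50 kb and 56.5% under 20 kb. That at 50 to 100 kb lay within the interval of the long domains. A longer domain also has more room to hold a peak. Of the 417, none was found on 74, 1 on 125, 2 on 97 and 3 on 41. The most stood on 137370000 to 137586799 on chromosome 1, with 15, on 76443600 to 76648599 on chromosome 15, with 13, and on 76813200 to 76958799 on chromosome 14, with 12. Per base the long domains were poorer in these peaks, with 15.1 per Mb (14.2 to 16.2), against 22.2, 33.5 and 69.6 per Mb in the classes of 50 to 100 kb, 20 to 50 kb and under 20 kb. Length chose the long domains, and peaks were densest at the ends, which make up more of a shorter domain. Peaks that overlap a domain with their summit outside it are also counted. The fall with length is thus partly set in advance, and ends and interiors are given apart below.

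OE-low Fbxl19 peaks numbered 138 on the long domains, and 96 long domains held at least 1 (23.0%, 19.1 to 27.4%; 12.4% of all OE-high domains). The share was 17.0% at 50 to 100 kb, 13.6% at 20 to 50 kb and 8.80% under 20 kb, and longer domains have more room for a peak. Per base the long domains were poorer in these peaks too, with 2.26 per Mb (1.90 to 2.68). The classes of 50 to 100 kb, 20 to 50 kb and under 20 kb had 2.98, 4.74 and 9.88 per Mb, a fall with the same limit as for OE-high peaks. The OE-low list is shorter, with 2213 peaks to the 13669 of OE-high.

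Rnf20 peaks numbered 511, at 8.39 per Mb (7.67 to 9.14), against 11.1, 17.1 and 38.5 per Mb in the shorter classes, a fall with the same limit. Rnf20 peaks stood on 222 long domains (53.2%, 48.3 to 58.1%), against 31.7% of all OE-high domains. The share was 41.0% at 50 to 100 kb, 34.0% at 20 to 50 kb and 24.3% under 20 kb, and longer domains have more room for a peak. Of the long domains, none was found on 195 and 1 on 127. Those with the most were 19917000 to 20038799 on chromosome 8 with 29, 44822000 to 45097399 on chromosome 13 with 20, and 146601400 to 146787999 on chromosome 4 with 17. Of the 923 OE-high Fbxl19 peaks, 256 overlapped an Rnf20 peak (27.7%, 24.9 to 30.7%), against 29.1% of such peaks over all OE-high domains. This share was thus near that of the whole list.

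The 74 long domains without an OE-high Fbxl19 peak differed from the 343 with them in other readouts. Day 4 cover was 55.2% with peaks and 35.8% without, and ES cover was 18.4% with and 10.1% without. An Rnf20 peak was present on 58.9% of those with Fbxl19 peaks and 27.0% of those without. Their median H2Bub1 scores were 12.2 and 9.28 in the same order. Only the long domains were split in this way, so whether shorter OE-high domains differ likewise was not examined.

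The position of the peaks relative to the domain ends was examined next. An OE-high Fbxl19 summit was within 1 kb of an end, on either side of it, in 198 of the 417 long domains (47.5%, 42.6 to 52.4%), against 48.4% of all OE-high domains. The summit stood at 1 end in 184 of them (44.1%), at both in 14 (3.36%), and 219 had none at either. The share was thus close to that of all OE-high domains, the window searched at an end being the same for every length. Where a summit was at an end, it was mostly at 1 end and not at both. OE-low summits were at an end of 22 (5.28%; 6.65% of all OE-high domains) and Rnf20 midpoints at an end of 84 (20.1%, 16.4 to 24.3%; 19.3%).

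By distance, OE-high Fbxl19 summits were at 8.86 per Mb between 50 and 25 kb outside the long domains and 10.6 per Mb between 5 and 1 kb outside. In the last 1 kb outside they reached 142 per Mb (118 to 170) and in the first 1 kb inside 125 per Mb (102 to 151). Farther in, the densities were 36.6 per Mb between 1 and 5 kb, 14.1 between 5 and 10 kb, 10.95 between 10 and 25 kb, 10.8 between 25 and 50 kb and 8.89 (7.61 to 10.3) beyond 50 kb. The density more than 50 kb inside was thus about that found 25 to 50 kb outside. Rnf20 followed with 50.6 per Mb in the last 1 kb outside, 56.4 in the first 1 kb inside and 4.42 (3.53 to 5.46) beyond 50 kb, where 3.81 per Mb were found 50 to 25 kb outside.

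**Figure D4:**
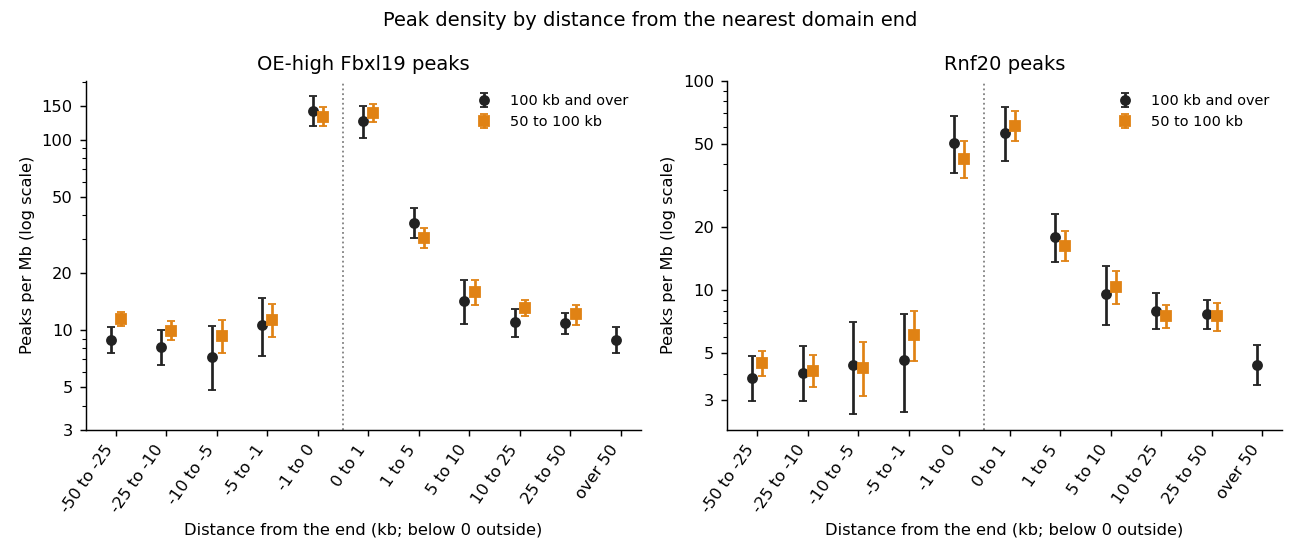
Density of OE-high Fbxl19 summits and Rnf20 midpoints per Mb (log axis) by distance in kb from the nearest end of a domain, negative outside, for the length classes, with 95% exact Poisson intervals. In the domains of at least 100 kb, Fbxl19 reaches 142 per Mb in the last 1 kb outside and 125 per Mb in the first 1 kb inside, and is at 8.89 per Mb beyond 50 kb inside.

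The outermost 5 kb at each end held 226 OE-high Fbxl19 summits, at 54.2 per Mb (47.4 to 61.7), and the rest of the long domains 593, at 10.4 per Mb (9.62 to 11.3). In the class of 50 to 100 kb the densities were 52.0 and 13.2 per Mb, in that of 20 to 50 kb 48.2 and 15.6, and under 20 kb 56.9 and 18.3. The ends of long domains were thus about as dense as those of shorter ones and their interiors sparser. For Rnf20 the densities in the long domains were 25.7 per Mb (21.0 to 31.0) at the ends and 6.78 (6.12 to 7.49) in the rest. For OE-low Fbxl19 they were 4.56 and 1.94 per Mb.

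In the 300 long domains with a summit inside, the one nearest to an end lay at a median of 2.91 kb from it. The longest run without an OE-high Fbxl19 summit had a median of 111 kb over the 417 and ran between 25.7 and 425 kb. Peaks at the ends and inside were alike in score, with medians of 11.05 and 10.7, and in the share with an Rnf20 peak, 64 of 226 (28.3%) and 160 of 593 (27.0%). The share that overlapped an OE-low Fbxl19 peak was 15 of 226 at the ends (6.64%, 3.76 to 10.7%) and 95 of 593 inside (16.02%, 13.2 to 19.2%). In the shorter classes these shares were 12.3% at the ends and 13.7% inside (50 to 100 kb), 12.5% and 15.1% (20 to 50 kb), and 12.1% and 24.4% (under 20 kb), so a lower share at the ends was found in each class.

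The ends of the long domains were compared with the ends of domains in the other lists. Of 834 ends, 30 had an end of a day 4 knockdown domain within 1 kb (3.60%; 5.25% over all OE-high ends), 285 an end of a day 4 domain (34.2%; 40.0%), 50 of a knockdown ES domain (5.995%; 9.19%) and 118 of an ES domain (14.1%; 14.6%). An OE-high Fbxl19 summit was within 1 kb of 212 ends (25.4%; 25.5%). At those 212, a day 4 end lay within 1 kb in 145 (68.4%, 61.7 to 74.6%), and at the other 622 ends in 140 (22.5%, 19.3 to 25.997%). The corresponding shares were 69.4% and 27.4% in the class of 50 to 100 kb. For ES ends on the long domains they were 31.1% and 8.36%, for knockdown ES 12.3% and 3.86% and for day 4 knockdown 8.96% and 1.77%. An Rnf20 midpoint lay within 1 kb of 64 of the 212 ends with Fbxl19 (30.2%) and of 22 of the 622 without (3.54%). In the class of 50 to 100 kb the shares with and without Fbxl19 were 30.1% and 8.02% for ES ends. There they were 18.1% and 5.27% for knockdown ES ends, 13.3% and 1.58% for day 4 knockdown ends and 28.0% and 3.22% for Rnf20. The ends with Fbxl19 were therefore the ones that more often recurred in each of the other H2Bub1 lists. This held in every length class and was not particular to the long domains.

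Ends of other lists' domains that fell inside the long domains, beyond the outermost 5 kb, were looked at in the same way. Within 1 kb of an inner day 4 end, OE-high Fbxl19 summits stood at 76.9 per Mb (40 summits, 54.9 to 105), and elsewhere inside at 9.83. For ES ends the values were 62.4 per Mb (28 summits, 41.5 to 90.2) and 10.03. For day 4 knockdown ends they were 103 per Mb (19 summits, 62.0 to 161) and 10.1, and for knockdown ES ends 57.1 per Mb (11 summits, 28.5 to 102) and 10.3. Rnf20 midpoints were at 38.5 per Mb (20 midpoints, 23.5 to 59.4) near inner day 4 ends and 6.49 elsewhere, and at 26.7 (12 midpoints, 13.8 to 46.7) near inner ES ends and 6.62 elsewhere. The day 4 domain that ends beside a summit in the 373.6 kb domain on chromosome 12 is an example. Shorter OE-high domains were not examined for inner ends, so these densities are not shown to be particular to the long ones.

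The interiors were then divided by cover, leaving out the outermost 5 kb. OE-high Fbxl19 summits were at 20.3 per Mb (17.5 to 23.4) in the ES-covered interior and 8.45 (7.64 to 9.32) in the rest. Rnf20 midpoints were at 20.1 per Mb (17.3 to 23.1) in the ES-covered interior and 4.09 (3.53 to 4.71) in the rest. The same held in the shorter classes. There the ES-covered interior and the rest had 23.6 and 10.9 Fbxl19 summits per Mb (50 to 100 kb), 25.4 and 13.03 (20 to 50 kb) and 31.2 and 14.4 (under 20 kb), and 18.4 and 5.70, 25.3 and 6.96, and 36.8 and 7.31 Rnf20 midpoints per Mb. A denser ES-covered interior was thus a trait of the whole OE-high list and not of its long domains alone. By day 4 cover, Fbxl19 stood at 10.6 per Mb in the covered interior of the long domains and 10.3 in the rest, and Rnf20 at 7.20 and 6.33 per Mb, with overlapping intervals. For knockdown ES cover the densities were 20.2 and 9.002 per Mb for Fbxl19 and 21.3 and 4.63 for Rnf20, and for day 4 knockdown cover 25.7 and 9.76 for Fbxl19 and 33.0 and 5.60 for Rnf20.

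A few domains weighed on the Rnf20 values. Over whole long domains, Rnf20 was at 23.1 per Mb in the ES-covered bases and 4.98 in the rest, and at 17.8 and 4.98 per Mb without the 3 long domains with the most Rnf20 peaks. In day 4 knockdown cover it was at 37.4 per Mb, against 6.74 in the rest, and at 21.3, against 6.48, without those 3. On chromosomes with at least 10 peaks inside long domains, Rnf20 was denser in the ES-covered bases on 17 of 17 and OE-high Fbxl19 on 18 of 19. The exception was chromosome 18, with Fbxl19 at 7.33 per Mb in ES-covered bases and 13.7 in the rest.

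**Figure D5:**
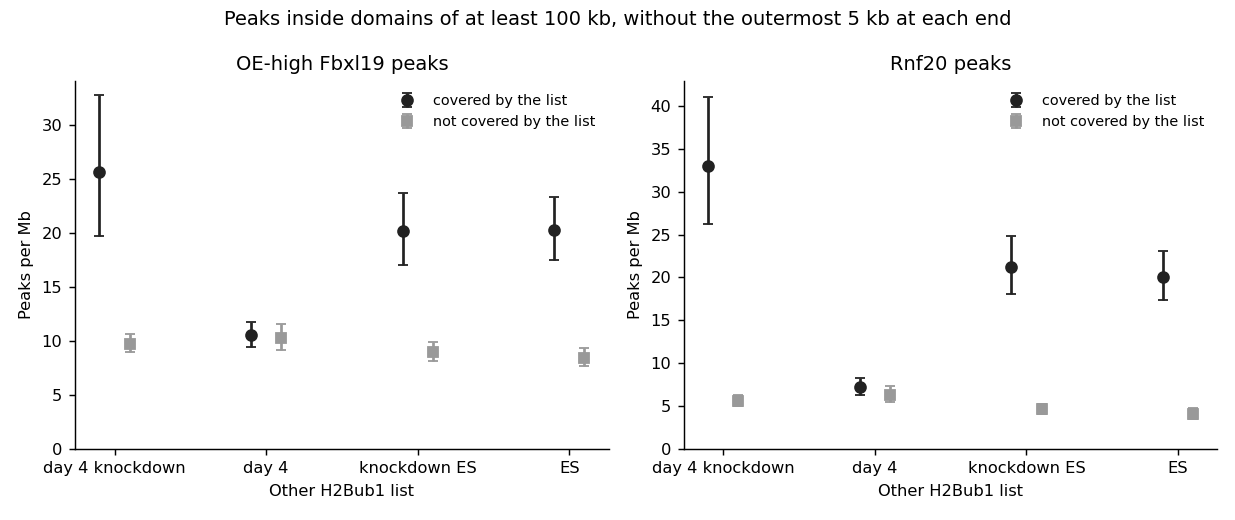
Peaks per Mb inside the long domains, without the outermost 5 kb at each end, in the bases covered by each of the 4 other H2Bub1 lists and in the remaining bases, with 95% exact Poisson intervals. ES-covered bases hold 20.3 Fbxl19 summits and 20.1 Rnf20 midpoints per Mb, against 8.45 and 4.09 in the rest, while day 4 cover splits Fbxl19 into 10.6 and 10.3 per Mb. Shorter domains, not drawn, also have denser ES-covered interiors (23.6 and 10.9 Fbxl19 summits per Mb at 50 to 100 kb).

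The 174 long domains that held an ES domain were set against the 243 that did not. Day 4 cover was 63.3% with an ES domain and 44.0% without, and knockdown ES cover 29.2% with and 1.57% without. An Rnf20 peak was present on 62.1% (54.4 to 69.3%) with and 46.9% (40.5 to 53.4%) without, and an OE-high Fbxl19 peak on 87.9% with and 78.2% without. An OE-high Fbxl19 summit was at an end in 47.1% with and 47.7% without, so this share was alike whether or not an ES domain was held anywhere. End by end it was otherwise, since an ES end lay within 1 kb of 31.1% of ends with a summit and 8.36% of those without. Median H2Bub1 scores in OE-high cells were 13.4 with and 10.6 without. Shorter OE-high domains were not split by ES domain, so these differences are not shown to be particular to the long ones.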

How the data were processed

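Per the submitters' processing notes, the tools were MACS and BWA 0.5.9-r16 and the build mm9; no role is given for each list. The 5 H2Bub1 lists are combined sets of BCP domains per the file headers, with a domain length in bp and the authors' deposited score, above 7 in each line; the formula of the score is not stated. The Fbxl19 and Rnf20 lists also carry deposited scores of the authors. Whether the third OE-high sample entered its combined list is not stated, and the read depth behind the lists is unknown.

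Members were the OE-high H2Bub1 lines of at least 100000 bp. They and the lists were chosen with earlier results of these data known. Overlap meant at least 1 bp, position meant the summit for Fbxl19 and the midpoint for Rnf20, an end meant 1 kb to either side, and domain ends lie on a grid of 200 bp. A peak or domain counts as held where it overlaps, and as inside where its position falls within, so the counts inside are smaller. Domains named were the 10 longest, the 3 with the highest score, most OE-high Fbxl19, most Rnf20, highest and lowest ES cover (ties by length), the 3 longest without OE-high Fbxl19, and 2 on each side of the threshold; others are said to be chosen after their values were seen. Alternatives changed the length threshold, overlap, score cut, list size, chromosomes, end width, edge width and the joining of neighbours; leaving out chromosome 1 and leaving out the 3 members richest in Rnf20 were added after seeing the data. Counts used Python 3.11.15 and NumPy 2.4.6, intervals SciPy 1.17.1 and figures matplotlib 3.10.9. The code was tested on 200 simulated domains, with 5 quantities recovered exactly.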

Additional observations from a re-analysis of the deposited data

How the results depend on the processing

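No paired analysis was possible because each group has 1 combined list, and for the same reason no replicate could be left out. Set against the alternatives, the main values stayed in 172 cases and moved in 36, and no ratio changed direction. To stay meant within the interval for shares, and within 1.5-fold for counts, cover, ratios and peak densities. The cause was not tested beyond the stricter or looser choice itself. A threshold of 80 kb gave 700 domains and 150 kb gave 138. At 150 kb, day 4 knockdown cover was 2.13%, the share with a day 4 knockdown domain 7.97% and that with OE-high Fbxl19 at an end 40.6%. Peak densities there were 13.6 per Mb for OE-high Fbxl19 and 7.15 for Rnf20, within 1.5-fold but below the intervals of the main values.

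With the top 50% of each other list by score, cover was 1.29% (day 4 knockdown), 25.9% (day 4), 5.64% (knockdown ES) and 5.18% (ES), and the shares holding a domain 5.995%, 37.6%, 10.3% and 19.4%. OE-high Fbxl19 then stood at 8.11 per Mb, on 62.4% and at an end of 28.5%, Rnf20 at 4.64 per Mb, on 35.3% and at an end of 13.4%, the Rnf20 ratio of ES-covered to other bases was 10.5, and 24.7% of Fbxl19 peaks met Rnf20. With lists of the same size, cover was 7.78% (day 4), 6.95% (knockdown ES) and 3.61% (ES), the shares holding a domain 14.4%, 12.5% and 13.2%, and that Rnf20 ratio 10.5, against 4.64 with the full lists.

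Without chromosome 1 the share with a knockdown ES domain was 16.4%, and the share of ES bases kept in knockdown ES domains 54.2%, against 64.7%. Counting midpoints gave OE-high Fbxl19 on 75.8%. An end of 500 bp gave 39.1% for Fbxl19 and 14.6% for Rnf20, and of 5 kb 64.7% and 31.7%. With an edge of 10 kb the Fbxl19 ratio of edge to rest was 3.37, against 5.19. Requiring 50% of the Fbxl19 peak gave 14.6% with Rnf20. Autosomes alone, joining neighbours within 5 kb, and leaving out the 10 longest, chromosome 4 or the 3 members richest in Rnf20 moved none of the main values by these rules. Without those 3 members, however, Rnf20 density was 7.37 per Mb, below its main interval of 7.67 to 9.14. The Rnf20 ratio of ES-covered to other bases was then 3.56, against 4.64.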

Other observations

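The 6 long domains covered to at least 90% in the ES and the knockdown ES lists and not at all at day 4, chosen after their values were seen, were 138739200 to 138849999 on chromosome 1, 12168400 to 12365599 on chromosome 11, 22300600 to 22413199 on chromosome 14, 145163600 to 145296799 and 146601400 to 146787999 on chromosome 4, and 19917000 to 20038799 on chromosome 8. Together they held 18 OE-high Fbxl19 and 62 Rnf20 peaks, and 29 of the Rnf20 peaks stood on the chromosome 8 domain alone. That domain was wholly covered in the day 4 knockdown list as well, and its score of 36.2 was the highest of the 417. The authors' scores of the 6 ran between 16.1 and 36.2, where the median of the 417 was 11.9. The domains from 8329000 to 8554399 on chromosome 11 and from 34141400 to 34362799 on chromosome 1 were wholly covered in the ES list and covered to 52.5% and 77.5% at day 4. The domain from 183826000 to 183959999 on chromosome 1, with a score of 35.7, was covered to 92.8% in the day 4 knockdown list, 87.3% at day 4, 100% in knockdown ES cells and 93.1% in ES cells.

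Long domains were unevenly spread over the chromosomes. They made up 10% of the OE-high domains on chromosome 3 (27 of 270) and 9.25% on chromosome 12 (31 of 335), against 2.74% on chromosome 11 (17 of 621) and 2.05% on chromosome 17 (8 of 390). Chromosome 1 stood apart in cover, with 47.6% of the bases of its 39 long domains in the ES list and 54.4% in the knockdown ES list, and 79.5% of them held an ES domain. Its long domains held 3.49 Rnf20 peaks per Mb, whereas the 417 together held 8.39. Those on chromosome 16 held 3.41 and those on the X chromosome 1.57, so a low Rnf20 density was not particular to chromosome 1. Cover by chromosome was worked out for the long domains only. The nearest other OE-high domain lay at a median of 49.8 kb from a long domain, against 37.9, 29.4 and 27.6 kb from domains of 50 to 100 kb, 20 to 50 kb and under 20 kb. It lay within 5 kb of 47 of the 417 (11.3%), against 9.15%, 11.7% and 12.3% in these classes.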
